A study of Caenorhabditis elegans with 2 samples.

Results

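The genes described here are those of the Caenorhabditis elegans proteasome and of the ATPase p97, 36 of the 19973 nuclear protein-coding genes in the annotation. They were picked out by name, but the list was chosen with earlier results of these data known, so its counts are descriptive only. The 7 pas genes encode the alpha ring and the 7 pbs genes the beta ring of the 20S core, the 6 rpt genes the ATPases and the 13 rpn genes the non-ATPase subunits of the 19S cap, and cdc-48.1, cdc-48.2 and ufd-1 complete the list. Occupancy by ELT-3, a GATA factor of the epidermis, was mapped by ChIP-seq, which sequences DNA bound by a protein, in whole larvae of the L1 stage, with 2 biological replicates in a single group. The animals were of strain OP75, genotype unc-119(ed3) III; wgIs75, pooled male and female, and carried an ELT-3 transgene with a GFP-FLAG tag at its C terminus. The control is not analysed here, and peaks from whole animals do not say in which tissue a site was occupied.

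The proteasome is the barrel-shaped protease that degrades proteins tagged with ubiquitin. The cap recognises the ubiquitin chain, removes it and unfolds the substrate, the alpha ring gates entry, and the beta ring holds the proteolytic sites. The hexameric ATPase p97 extracts ubiquitinated proteins from membranes and complexes before they reach the proteasome, and in C. elegans it is encoded by the paralogs cdc-48.1 and cdc-48.2. UFD-1 is a cofactor of p97 that works with NPL-4. In worms the transcription factor SKN-1A, the ER-associated form of SKN-1, activates genes of proteasome subunits when the proteasome is impaired, so its binding sites were searched beside GATA sites.

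The deposited lists on ce11 held 1014 peaks in the IDR set and 30000 in the list of pooled replicates. Replicate 1 had 17087 and replicate 2 had 7079. The IDR set is filtered by irreproducible discovery rate, which is meant to keep peaks ranked alike in replicates. The pooled and replicate lists are described as holding peaks and background. Of the pooled rows, 82.4% have a q-value score below 0, so a summit in the pooled list alone may be background. None of the IDR rows is also a pooled row, and 905 of them overlap a peak in each replicate. The highest-signal IDR peak lay within elt-3 itself, the gene carried by the transgene. Signal is the authors' own value per peak, on a scale that differs between lists, so its values are compared here only within a list. Read depth is unknown.

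The peaks at cdc-48.1 and rpn-3 had the highest signal of any member in the pooled list, and their whole IDR peaks are shown here because neither held a GATA site. Bases are from the RefSeq WBcel235 genome, on the gene's own strand and 5′ to 3′. Capitals mark a match to the SKN-1 site, which was searched as 2 letters that are each A or T followed by TATCAT or TGTCAT, on both strands. The peak of cdc-48.1 is on the minus strand at chrII:10563443-10563698 and that of rpn-3 on the plus strand at chrIII:8447031-8447286.
cdc-48.1: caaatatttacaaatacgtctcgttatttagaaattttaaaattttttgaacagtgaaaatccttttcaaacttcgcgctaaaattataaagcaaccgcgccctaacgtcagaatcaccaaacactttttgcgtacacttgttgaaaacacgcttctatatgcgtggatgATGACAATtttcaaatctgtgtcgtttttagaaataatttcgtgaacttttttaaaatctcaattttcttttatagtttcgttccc
rpn-3: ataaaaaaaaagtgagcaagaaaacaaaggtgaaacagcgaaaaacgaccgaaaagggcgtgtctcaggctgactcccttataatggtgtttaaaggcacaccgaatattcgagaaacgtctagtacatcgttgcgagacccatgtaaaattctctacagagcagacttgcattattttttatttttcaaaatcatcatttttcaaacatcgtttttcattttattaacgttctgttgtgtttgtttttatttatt

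A gene was counted as having a summit where its annotated 5′ end had one at most 1500 bp upstream or 500 bp downstream. In the IDR set this held for 3 of the 36 members (8.33%), against 2.95% of all protein-coding genes. They were cdc-48.1, the lid subunit gene rpn-3 and the alpha subunit gene pas-5. The other 33 had none. Within the IDR set the median signal percentile of these 3 peaks was 68.2, against 51.2 over the 467 IDR peaks in promoter windows. The 3 values were far apart, at 99.9 for cdc-48.1, 68.2 for pas-5 and 30.7 for rpn-3. Among many-subunit complexes counted in the same way, the share was 30.8% of 78 ribosomal protein genes, 20.0% of 20 vacuolar ATPase genes and 12.5% of 8 chaperonin genes, and no difference between these lists was tested.

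The peak upstream of cdc-48.1 was among the strongest in every list. Its summit lay in intergenic sequence 164 bp upstream of the gene (WBGene00007352; II, 10560036 to 10563407, minus strand) in the IDR set. There its signal was 243, at rank 2. In the pooled list the signal was 328 (rank 2, 165 bp upstream). In replicate 1 it was 119 (rank 4, 167 bp upstream) and in replicate 2 it was 210 (rank 2, 165 bp upstream). Both replicates thus placed the summit within a few bases of the same position, and the peak was near the top of each list. The same summit also fell in the window of C06A1.7, a gene on the opposite strand, but 1320 bp from its start. The nearest protein-coding gene upstream of cdc-48.1 was C06A1.6, on the same strand, with a gap of 704 bp.

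The other p97 genes had no comparable peak. cdc-48.2 (WBGene00008053; II, 8138496 to 8141230, plus strand) had a single weak pooled row 305 bp upstream (signal 17.2, rank 17753, score -0.0994) and no row in either replicate. Its nearest IDR summit lay 6617 bp upstream in an intron of ulp-4. The ufd-1 window (WBGene00006733; IV, 12329408 to 12330890, minus strand) held pooled rows 317 bp downstream in coding sequence (signal 23.7) and 692 bp upstream in an exon of F19B6.1 (signal 17.8), and neither replicate had a row there. Of the paralogs that encode p97, only cdc-48.1 thus had a summit in the IDR set or in the replicate lists.

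At rpn-3 (WBGene00004460; III, 8447353 to 8449346, plus strand) the summit lay between divergent genes. RPN-3 is a structural subunit of the lid, the part of the cap that removes ubiquitin. The signal in the IDR set was 54.1 (rank 704, 194 bp upstream). In the pooled list it was 124 (rank 106), in replicate 1 it was 39.9 (rank 236) and in replicate 2 it was 81.6 (rank 93). The peak thus stood lower in the IDR set than in the other lists. The same IDR summit was 250 bp upstream of hsp-110, which encodes a chaperone of the Hsp110 family, and 64 bp upstream of the non-coding RNA C30C11.14. Which of these genes the peak belongs to cannot be told apart from the position.

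At pas-5, one of the alpha ring genes (WBGene00003926; I, 10566350 to 10567300), the summit was distant. It lay 1145 bp upstream in the IDR set (I, 10565077 to 10565332, signal 69.8, rank 323), and no other protein-coding gene's window held it. A small nucleolar RNA gene, F25H2.15, starts 61 bp downstream of that summit. The signals were 71.3 in the pooled list (rank 637), 31.7 in replicate 1 (rank 458) and 36.7 in replicate 2 (rank 1069). The peak was thus outside the 1014 strongest of replicate 2. With a window of 500 bp upstream and 250 bp downstream, pas-5 no longer counted, whereas cdc-48.1 and rpn-3 did.

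**Figure D1:**
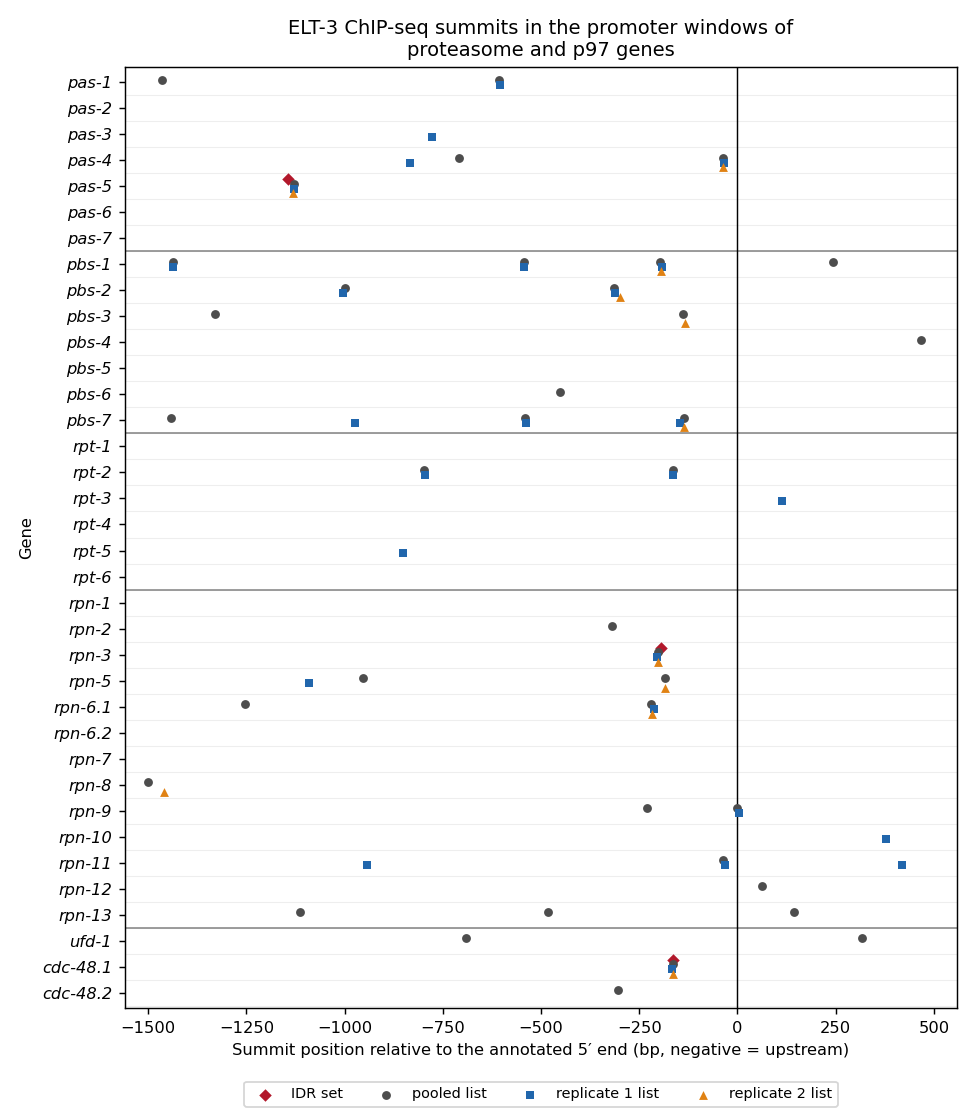
Positions of all summits in the promoter windows of the 36 genes (x axis, bp from the annotated 5′ end, negative upstream) by gene (y axis, with lines between the alpha ring, beta ring, ATPase, non-ATPase and p97 groups), with a symbol for each of the 4 lists. All 4 lists mark the same site at cdc-48.1, rpn-3 and pas-5, and 10 genes have no summit in any list.

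In the longer lists the members had more summits, as did genes at large. The pooled list gave 22 of 36 members a summit (61.1%, against 52.1% of all genes), replicate 1 gave 17 (47.2%, against 33.9%) and replicate 2 gave 11 (30.6%, against 17.9%). Cut to their 1014 strongest peaks, the pooled list gave 3 members (3.41% of all genes), replicate 1 gave 3 (3.38%) and replicate 2 gave 2 (3.44%). The strongest pooled signal in the window, taken as 0 where there was none, had a median of 16.99 over the members and 14.6 over all genes. The lowest signal in the pooled list was 14.2, so the median over all genes lay near the floor. These medians depend on the shares of genes with a row and are not a separate measure of strength. Overlapping peaks of both replicates were found at 8 members (22.2%) and at 12.2% of all genes.

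**Figure D2:**
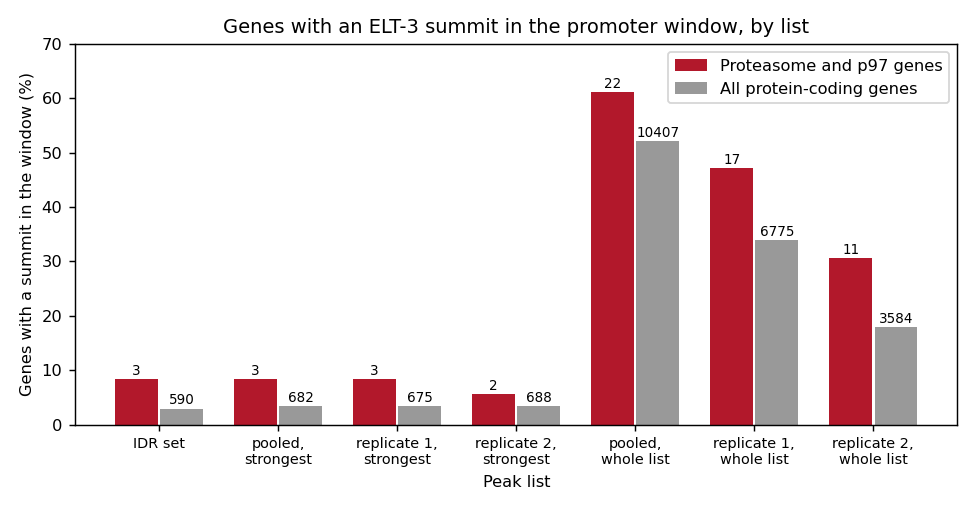
Percentage of genes with a summit in the promoter window (y axis) in each list (x axis), for the 36 proteasome and p97 genes and for all 19973 protein-coding genes, with the number of genes above each bar. In the IDR set 3 members (8.33%) and 590 genes (2.95%) had one.

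At 5 members without an IDR summit both replicates had overlapping peaks in the window. The share of all genes in this class was not computed, and the replicate lists also hold background. These were pas-4, pbs-1, pbs-2, pbs-7 and rpn-6.1. pbs-1, pbs-2 and pbs-7 encode beta ring subunits and pas-4 an alpha ring subunit. RPN-6.1 is a lid subunit that braces the cap against the core, and in worms its overexpression is known to protect against proteotoxic stress.

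At pas-4 the summit lay 37 bp upstream in the pooled list, with a signal of 40.5 (rank 2062). The replicate signals were 12.4 and 25.4, and the site was also 240 bp upstream of the divergent gene rpb-3, which encodes a subunit of RNA polymerase II. At pbs-1 the pooled summit was 198 bp upstream (signal 38.5, rank 2270) and the overlapping replicate summits, 193 and 195 bp upstream, had signals of 11.2 and 27.7. A stronger replicate 1 row at pbs-1, with a signal of 12.6, lay 1437 bp upstream, and 80 bp upstream of rpi-2. The proximal pbs-1 site was thus the one found in both replicates.

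At rpn-6.1 the pooled summit was 219 bp upstream (signal 38.1, rank 2318), in an intron of the divergent gene F57B9.1 and 130 bp past its start. The replicate signals there were 17.7 and 16.5, so the summit ranked 1735 in replicate 1 but 5853 of 7079 in replicate 2. The pbs-2 summit, 314 bp upstream and 352 bp upstream of the divergent translation factor gene eif-6, had a pooled signal of 29.9 with replicate signals of 11.3 and 18.8. The weakest was pbs-7, with a pooled signal of 24.99 at 136 bp upstream, and its replicate 2 signal of 15.5 was close to the lowest value in that list.

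**Figure D3:**
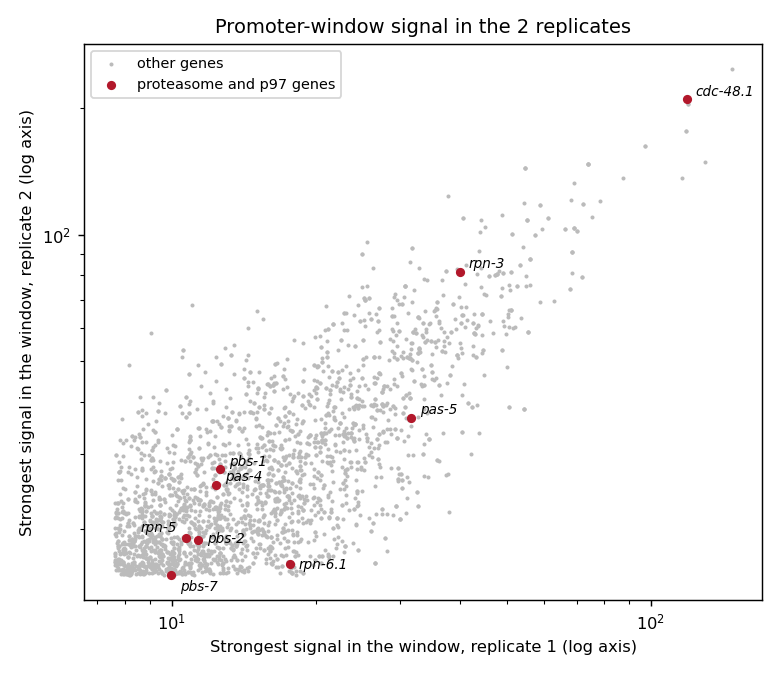
Strongest signal in the promoter window in replicate 1 (x axis, log scale) and replicate 2 (y axis, log scale) for the 2722 genes with a summit in both replicate lists, with the 9 members among them named. cdc-48.1 lies at the upper end in both, rpn-3 and pas-5 follow, and the other 6 members reach at most 17.7 in replicate 1 and 27.7 in replicate 2.

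By role, the order of the groups differed between lists. Of the 6 ATPase genes of the cap, 0 had an IDR summit, 1 a pooled row, 3 a replicate 1 row and 0 a replicate 2 row. The gene with the pooled row was rpt-2, whose pooled summit 164 bp upstream (signal 32.1, rank 3183) lay in an exon of the non-coding RNA F29G9.10 and 137 bp upstream of the divergent gene aps-1. It ranked 1308 in replicate 1, with a signal of 20.3. Of the 7 beta ring genes, 0 had an IDR summit, 6 a pooled row, 3 a replicate 1 row and 4 a replicate 2 row. Of the 7 alpha ring genes, 1 had an IDR summit, 3 a pooled row, 4 a replicate 1 row and 2 a replicate 2 row. These counts are read beside the shares of all genes given above for each list, and no test was made between these groups.

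Among the 13 non-ATPase genes, 1 had an IDR summit, 9 had a pooled row, 6 a replicate 1 row and 4 a replicate 2 row. At rpn-5, which encodes a lid subunit, the pooled summit 185 bp upstream (signal 21.1) was also 109 bp upstream of the divergent cohesin gene scc-1. rpn-8 had its pooled summit at the very edge of the window, 1500 bp upstream (signal 39.2), in the 3′ UTR of mrps-6 and 195 bp upstream of R12E2.11. rpn-11, the gene of the deubiquitinase of the cap, had a pooled row 37 bp upstream (signal 16.7) that replicate 1 also had (32 bp upstream, signal 12.3). The ubiquitin receptor genes rpn-10 and rpn-13 were weak, with no pooled row at rpn-10 and pooled signals of at most 16.4 at rpn-13. The scaffold gene rpn-1 had no row in any list, and neither did rpn-6.2, rpn-7, pas-2, pas-6, pas-7, pbs-5, rpt-1, rpt-4 or rpt-6.

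Several members had rows in 1 replicate or in the pooled list alone. pbs-3, a beta ring gene, had a pooled row 138 bp upstream (signal 23.3) and a replicate 2 row 134 bp upstream (signal 17.9), both in the 3′ UTR of ulp-2, and none in replicate 1. At rpn-9, a lid subunit gene, the pooled row lay 1 bp upstream (signal 26.9) and the replicate 1 row 4 bp downstream (signal 9.62). At pas-1 the pooled and replicate 1 rows, with signals of 20.8 and 11.0, were 606 and 605 bp upstream, in coding sequence of the neighbouring gene rpoa-12. These rows were thus at the same sites in the pooled list and in 1 replicate, and absent from the other.

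The rows of pbs-4, pbs-6, rpn-2 and rpn-12 were in the pooled list alone, with signals from 15.2 to 19.8 and scores below 0. Those of pas-3, rpt-3, rpt-5 and rpn-10 were in replicate 1 alone, with signals from 7.62 to 9.37, below the list's median of 9.67. Of the pooled rows, those of pbs-6 (19.8) and rpn-12 (18.9) were above that list's median of 18.2 and the other two below it. rpn-2 and rpn-12 encode a scaffold subunit and a lid subunit of the cap.

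The 19 members with a pooled row but no IDR summit had a strongest pooled signal between 15.2 and 40.5, with a median of 23.3. Of the 38 member summits in the pooled list 28 (73.7%) had a score below 0, and 10 members had 1 above 0, or 27.8% of members against 14.6% of all genes. The members without an IDR summit in the window lay between 1343 and 346727 bp from the nearest one, with a median of 36557 bp. The closest was at pbs-2, whose nearest IDR summit (signal 130) lay 279 bp past its 3′ end and 142 bp upstream of the tubulin gene tba-2. The next was at rpt-1, with a summit (signal 124) 462 bp past the 3′ end and 349 bp upstream of the splicing factor gene snr-4.

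Of the 38 pooled summits in member windows, 26 (68.4%) were also in the window of another protein-coding gene. Over all genes, with each summit counted once per gene, this held for 34.8%, and the difference was not tested. The upstream neighbour was on the opposite strand at 24 of the 36 members (66.7%), compared with 45.4% of all genes, and the median gap to it was 449 bp, compared with 1156 bp. Where the gap is short, a summit cannot be assigned to either gene by position. The strongest pooled summit was within 250 bp upstream at 11 of the 22 members with one (50%) and at 20.5% of all genes with one.

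GATA sites were not found at the IDR peaks of the members. GATA was searched on both strands as AGATAA, with T also allowed as the first letter and G as the last. At most 50 bp from the summit, 0 of 3 member peaks had a match, against 52.6% of all IDR summits and 225 of the 467 in promoter windows. Over the whole peak the counts were 0 of 3, against 74.7% of all IDR peaks and 70.2% of those in promoter windows. With only 3 peaks the exact 95% interval of the share reaches 70.8%. The interval is only a guide, since these peaks are not a random sample. Whether their share differs from that of other promoters cannot be told from it. The nearest GATA match was 130 bp from the summit at cdc-48.1, on the side of the gene, 234 bp at rpn-3 and 198 bp at pas-5. GAGAGA, present within 50 bp of 26.2% of all IDR summits, was at none of the 3.

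In the pooled list 8 of the 38 member summits (21.1%) had a GATA match within 50 bp, close to the 24.3% of all pooled rows. rpn-6.1 was among them, with TGATAA once on each strand, beginning 3 bp before and 12 bp after the summit. In the sequence of the members' promoters, taken as the 250 bp before and the 50 bp after the 5′ end, 52.8% of members and 54.5% of all genes had a GATA match.

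The SKN-1 site was at 7.2% of all IDR summits within 50 bp and at 1 of the 3 member peaks, that of cdc-48.1. Its 8 bases there begin 43 bp from the summit and 121 bp upstream of the gene, so they only just fit within 50 bp. From the cdc-48.1 summits of the pooled, replicate 1 and replicate 2 lists, the match was not wholly within 50 bp. The pooled and replicate 1 peaks still held it, and the narrower replicate 2 peak did not. In the same promoter stretch 13 of 36 members (36.1%) had a match, against 16.5% of all genes. In the 500 bp before the 5′ end the counts were 16 of 36 (44.4%) and 25.2%. Of the 19 matches before members, 3 overlapped a GATA match (15.8%, against 35.7% of the matches before all genes), since a SKN-1 site that ends in TTATCAT holds TTATCA, the reverse complement of TGATAA. The 16 genes were 3 of the alpha ring, 2 of the beta ring, 3 ATPase and 5 non-ATPase genes, and all 3 p97 genes.

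The weaker summits of rpt-2, pbs-1, rpn-6.1 and cdc-48.2 are shown for comparison with the cdc-48.1 peak, as 75 bp either side of the pooled summit on the gene's own strand. Capitals mark SKN-1 sites in rpt-2, pbs-1 and cdc-48.2 and GATA sites in rpn-6.1. The stretches are at chrV:6017758-6017908, chrIV:1709868-1710018, chrIII:6962145-6962295 and chrII:8138116-8138266, of which only that of cdc-48.2 is on the plus strand.
rpt-2: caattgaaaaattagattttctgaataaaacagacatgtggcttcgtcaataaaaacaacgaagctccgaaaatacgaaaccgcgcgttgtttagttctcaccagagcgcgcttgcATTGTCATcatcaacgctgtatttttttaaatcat
pbs-1: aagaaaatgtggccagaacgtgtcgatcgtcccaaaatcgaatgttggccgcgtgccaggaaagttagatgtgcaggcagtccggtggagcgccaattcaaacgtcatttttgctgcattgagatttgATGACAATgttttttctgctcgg
rpn-6.1: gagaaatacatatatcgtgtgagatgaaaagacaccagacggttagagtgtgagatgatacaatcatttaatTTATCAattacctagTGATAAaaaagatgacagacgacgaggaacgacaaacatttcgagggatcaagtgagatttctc
cdc-48.2: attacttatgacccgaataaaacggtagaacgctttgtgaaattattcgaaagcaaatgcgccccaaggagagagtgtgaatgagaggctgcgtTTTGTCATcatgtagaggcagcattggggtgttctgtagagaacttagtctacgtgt

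In cdc-48.1, rpt-2, pbs-1 and cdc-48.2 the SKN-1 site continued into the same longer run, TTGTCATCA or its reverse complement. This run was picked after these sequences were seen, so its counts only describe them. It was found in the 500 bp before 6 of the 36 members (pas-2, pbs-1, rpt-2, rpn-7, cdc-48.1 and cdc-48.2) and before 1.22% of all genes. rpn-2 and rpn-5 also had a SKN-1 match within 50 bp of a pooled summit, but the longer run was not found in the 500 bp before them. Over whole peaks the run was in 1.08% of the IDR set. cdc-48.1 and cdc-48.2 both carried it, 123 and 285 bp upstream, although the ELT-3 signal of rank 2 stood only at cdc-48.1. pas-2 and rpn-7 carried it with no row in any list, and at rpn-7 it was not part of a SKN-1 match. A match is a description of the letters and not a measured site.

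**Figure D4:**
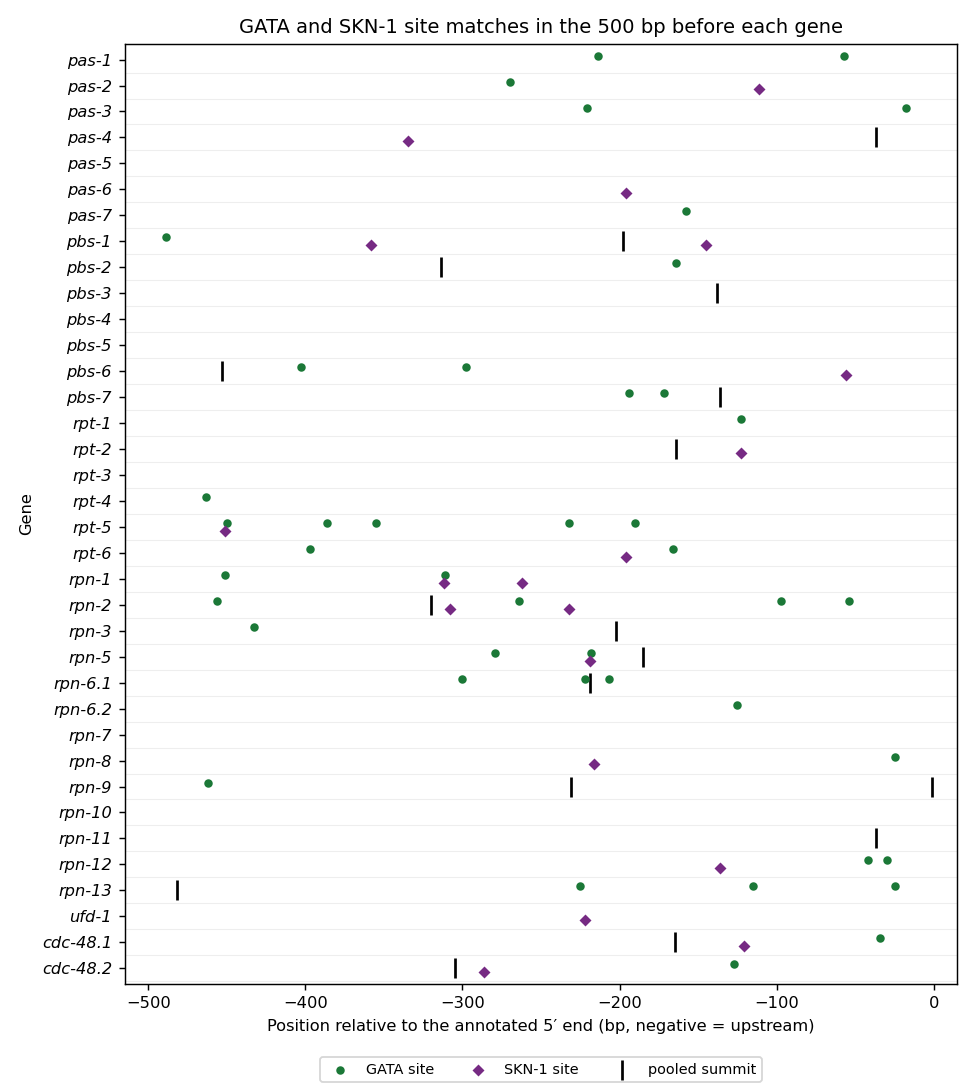
First base of each GATA and SKN-1 site match and position of each pooled summit in the 500 bp before the 36 genes (x axis, bp from the annotated 5′ end; y axis, gene). At cdc-48.1 the SKN-1 match is 121 bp upstream, nearer to the summit at 165 bp than the GATA match, while at rpn-6.1 GATA matches stand beside the summit at 219 bp.

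The remaining genes of the ubiquitin pathway were counted from lists of ubiquitin and its activating enzyme, E2 enzymes, shuttle factors, p97 cofactors, ER-associated degradation, proteasomal deubiquitinases with assembly factors, and cullins. Of these 56 genes, 3 had an IDR summit (5.36%, against 2.95% of all genes). The shuttle factor gene ubql-1, a ubiquilin, had a summit 519 bp upstream (signal 62.7, rank 469), which overlapped peaks at rank 31 in replicate 1 and 132 in replicate 2 and lay also in the window of pdi-3, a protein disulfide isomerase gene. The p97 cofactor gene ufd-3 had one 124 bp upstream (rank 933) with a GATA match, and the ubiquitin ligase scaffold gene cul-4 had one 236 bp upstream (signal 51.5, rank 807). The best replicate ranks at ufd-3 were 2328 of the 17087 rows of replicate 1 and 1177 of the 7079 rows of replicate 2. At cul-4 they were 10151 and 1494. None of the 21 E2 genes, of the 8 genes of ER-associated degradation or of the 3 genes of ubiquitin and its activating enzyme had an IDR summit. With the 1014 strongest pooled peaks only ubql-1 counted.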

How the data were processed

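ELT-3 ChIP-seq of 2 biological replicates was analysed from peak lists on ce11. The authors made the pooled and replicate lists from ChIP and control alignments, and the IDR set from these lists, per the deposited records. Neither aligner nor peak caller nor cutoff is named there. The authors deposited a signal value and a q-value score per peak, and neither entered a test. The ce10 lists were not used, since genes could not be assigned on that build.

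Genes came from Ensembl release 115 (WBcel235, which is ce11), and sequence from the RefSeq WBcel235 genome. Coordinates are 1-based. Summits were assigned to genes by the window given above, unless an alternative setting is named. By window, 1 summit can count for several genes. Overlap means at least 1 bp. No test was run: counts stand beside those over all genes. The members and lists were chosen with earlier results of these data known. Genes named in full were members with an IDR summit or one among the 1014 strongest pooled peaks, and the p97 genes. Those with overlapping replicate peaks, rpt-2, rpn-5, rpn-8, rpn-11 and the extended motif were chosen after their values were seen, as were the promoter stretches searched. The symbols edem-1, psmd-10 and psme-4 matched no gene. Window and motif searches were tested on simulated data. Python 3.11.15, numpy 2.4.6, pandas 2.3.3, scipy 1.17.1 and matplotlib 3.10.9 were used.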

Additional observations from a re-analysis of the deposited data

How the results depend on the processing

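The count of members with a summit was 3 in the IDR set and stayed between 2 and 3 in the 9 alternative settings, while the share of all genes ranged from 1.59% to 4.47%. With the window of 3000 bp upstream and 1000 bp downstream, 8.33% of members stood against 4.47% of all genes, and with the nearest 5′ end only against 4.23%. cdc-48.1 had a summit in all 10 settings, rpn-3 in 9 and pas-5 in 8. rpn-3 was missing from the 507 IDR peaks with the highest signal. pas-5 was missing from the strongest peaks of replicate 2 and from the window of 500 bp upstream and 250 bp downstream. No member summit had a GATA match within 50 bp in any of these settings. In the IDR set this also held with TGATAA alone, within 25 or 100 bp, and in the whole peak (added after seeing the data). The wider replicate 1 peak of cdc-48.1 did hold 1 match.

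The median signal percentile of the member peaks was 68.2 in the IDR set and 89.6 in the strongest pooled peaks, and 76.8 to 95.4 when either replicate was left out. Without replicate 1 only rpn-3 and cdc-48.1 counted, so these medians do not all cover the same genes. In the strongest pooled peaks the genes were those of the IDR set. There rpn-3 stood at rank 106 (704 in the IDR set) and pas-5 at 637 (323 in the IDR set). The cause of these shifts in rank was not tested. The count of other ubiquitin pathway genes fell from 3 to 1 with the strongest pooled peaks and to 1 with the 507 highest IDR peaks. It was 2 with the window of 500 bp upstream and 250 bp downstream, and 4 with the nearest 5′ end only. It was 1 to 2 when either replicate was left out. Peaks with few reads cannot be told from background here, because the lists hold no read counts. No paired analysis was possible because there is a single group.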
